A study of Mus musculus with 14 samples.

Results

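The Hox genes were the genes of the deposited expression table whose symbol was Hox, a cluster letter from a to d and a paralog number. They were 39 of the 21853 genes of the table, 11 in the Hoxa cluster, 10 in Hoxb, 9 in Hoxc and 9 in Hoxd. The table came from RNA-seq of ovaries and uteri of 28-week-old female C57BL/6J mice, with 14 libraries in 4 groups. The old control (OC) mice, n = 3, received saline by tail vein, and the old treatment (OT) mice, n = 4, received AMSC-CM in its place, the culture medium conditioned by human amniotic-membrane mesenchymal stem cells that were grown from the amnion of 3 donors. The medium was given 6 times at intervals of 4 days, 1 µL per g of body weight each time. Before that, the mice of both groups had received pregnant mare serum gonadotropin and, 48 h later, human chorionic gonadotropin, 10 IU of each. An ovary and a uterus library carried the label of each mouse.

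Hox genes encode homeodomain transcription factors that give cells their position along the head-to-tail axis of the embryo. Within a cluster the genes lie in the order of their paralog numbers, and genes of higher number are used further toward the tail. In the developing Müllerian duct of the mouse, Hoxa9 is known for the oviduct, Hoxa10 for the uterus, Hoxa11 for the uterus and cervix, and Hoxa13 for the cervix and upper vagina. In the adult uterus, Hoxa10 and Hoxa11 are needed for decidualization and embryo implantation.

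The positions below are those of GENCODE M21 on GRCm38. Hoxa lay on chromosome 6 on the minus strand, Hoxb on chr11:96194316-96368256, Hoxc on chr15:102921103-103036852 and Hoxd on chr2:74668310-74765142, these 3 on the plus strand. Of the 39 genes, 12 overlapped another protein-coding gene on their own strand, so that the split of reads between them is uncertain. These were Hoxa2 to Hoxa6, which lie within or beside Hoxa3 and the readthrough gene Gm28308, Hoxc5, Hoxc6, Hoxc8, Hoxc9 and Hoxc10, where the Hoxc5 model spans the others, and Hoxd3 with Hoxd4. The libraries were strand-specific, which keeps antisense transcripts of the clusters apart.

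The results below turn on 4 members of the Hoxa cluster, whose upstream sequences are therefore shown: Hoxa5, which was higher in the ovary, Hoxa10 and Hoxa11, neighbours that were high in the uterus and varied together among the ovaries, and Hoxa13, read in the uterus and listed at 0 in every ovary. Each sequence is the 250 bases before the start of the gene in RefSeq on GRCm38.p6, read 5′ to 3′ on the minus strand. The windows lie at chr6:52204588-52204837 for Hoxa5, chr6:52240855-52241104 for Hoxa10 (the start of its longer transcript), chr6:52245811-52246060 for Hoxa11 and chr6:52260881-52261130 for Hoxa13. None held an exon of GENCODE M21 on the strand of its gene, and that of Hoxa11 held exons of the antisense gene Hoxa11os. Capitals mark the CCAAT box, which is ATTGG where it lies on the other strand.
Hoxa5: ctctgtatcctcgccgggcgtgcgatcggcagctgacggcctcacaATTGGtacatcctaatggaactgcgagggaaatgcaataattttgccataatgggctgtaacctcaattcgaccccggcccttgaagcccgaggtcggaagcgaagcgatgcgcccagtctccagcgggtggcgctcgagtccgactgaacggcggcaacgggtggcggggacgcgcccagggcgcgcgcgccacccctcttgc
Hoxa10: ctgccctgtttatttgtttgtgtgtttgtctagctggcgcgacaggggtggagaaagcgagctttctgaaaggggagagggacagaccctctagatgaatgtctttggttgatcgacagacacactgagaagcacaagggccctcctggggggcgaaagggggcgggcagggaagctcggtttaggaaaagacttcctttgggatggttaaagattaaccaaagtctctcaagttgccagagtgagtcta
Hoxa11: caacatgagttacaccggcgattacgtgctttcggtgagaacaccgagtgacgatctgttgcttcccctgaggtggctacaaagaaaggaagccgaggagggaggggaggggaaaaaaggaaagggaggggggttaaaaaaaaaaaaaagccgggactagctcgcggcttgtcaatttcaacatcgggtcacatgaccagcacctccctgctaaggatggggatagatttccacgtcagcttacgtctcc
Hoxa13: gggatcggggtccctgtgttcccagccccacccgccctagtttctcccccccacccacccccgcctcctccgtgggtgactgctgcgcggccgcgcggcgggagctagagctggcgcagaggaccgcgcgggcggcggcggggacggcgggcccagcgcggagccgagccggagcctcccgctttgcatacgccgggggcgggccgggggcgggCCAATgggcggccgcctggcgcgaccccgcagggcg
In these windows, a CCAAT box began 204 bases before the start of Hoxa5 and 36 bases before that of Hoxa13, and none was found in the windows of Hoxa10 and Hoxa11. A second Hoxa10 window, before the start of the shorter transcript, held 1 CCAAT and 1 TATAAA. The window of Hoxa13 held 35 CG dinucleotides, that of Hoxa5 28, that of Hoxa11 13 and that of Hoxa10 7, against a median of 6 over the 32851 windows of the table. RefSeq gave 24 windows for 22 of the 39 members, with a median of 12.5 CG dinucleotides. Besides the CCAAT box, the letters searched on both strands were TATAAA for the TATA box, TTTATGG for a site that caudal-type and tail-end Hox proteins are known to bind, and TAATTA for a site of many homeodomain proteins. CCAAT was in 58.3% of the Hox windows and in 33.8% of all windows, TATAAA in 16.7% and 12.4%, TTTATGG in 4.17% and 2.43%, and TAATTA in 8.33% and 4.84%. These matches describe letters in the windows and not binding.

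The values were FPKM, in which the fragments of a gene are divided by the length of its transcript and by the fragments mapped in that library, so that genes can be compared per length. The total FPKM per library was 374816 to 577494 and the 75th percentile over all genes 15.3 to 15.8, and no libraries were identical. The number of reads behind the values is unknown, which leaves no counting interval for a low value. The libraries bore out their tissue labels by level: the summed FPKM of 12 ovary markers was 3583 to 4685 in the ovary against 9.17 to 24.8 in the uterus. Of the ovary markers, 12 of 12 were called higher in the ovary, and 8 of 12 uterus markers were called higher in the uterus. Only 6 of the ovary markers reached a mean of 0.5 FPKM in the uterus. Among the 8 uterus markers, Wnt7a and Lif averaged 0.417 and 0.463 FPKM in the ovary. A marker that passed the filter on low values only through 1 tissue had its direction set by it, so these counts are a description. The ovary libraries also held oviduct epithelium markers, summed FPKM 504 to 1016, with the oviductal glycoprotein gene Ovgp1 at 424 to 942 FPKM. OT uteri differed from OC uteri in markers of other tissues. Adipocyte markers summed to 81.9 to 264 FPKM in OC uteri and to 1230 to 11768 in OT uteri, highest in OT1, and 9 of 11 were called higher. In the ovaries they summed to 174 to 293 FPKM in OC and to 220.5 to 1770 in OT, and 4 of 10 tested were called higher. Stratified epithelium markers, which mark the lining of the cervix and vagina, summed to 7.13 to 18.3 FPKM in OC uteri and to 54.3 to 953 in OT uteri. Of the 16 genes of the list, 1 was at 0 in all 7 uteri, and 9 of 12 tested were called higher. Among those called, Krt14, Krt15, Krt6a, Krt6b, Krt4 and Trp63 averaged 0.0205 to 0.481 FPKM in OC uteri. They passed the filter on low values only through OT, which set their direction, so this count is a description. Urothelium markers summed to 166 FPKM in the OT1 uterus and to 5.24 to 25.3 in the other uteri, and Upk3a was above 0 in only 1 of the 7 uteri, OT1, at 48.7 FPKM.

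Most of the family was read in both organs. A mean of at least 0.5 FPKM was reached by 29 members in the ovary and by 31 in the uterus, the latter being the same 29 with Hoxa13 and Hoxc11. The other 8 stayed under 0.5 FPKM in both. Among them were Hoxb1 and Hoxd1 at the head end of their clusters, with values up to 0.0928 and 0.107 FPKM, and Hoxb13, Hoxc12, Hoxc13, Hoxd12 and Hoxd13 at the tail end, with the highest value at 0.140 FPKM for Hoxd13 in the OT1 uterus. Hoxc12 was listed at 0 in all 14 libraries. The map of Hox gene levels over the 14 libraries shows the low rows at these ends.

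**Figure D1:**
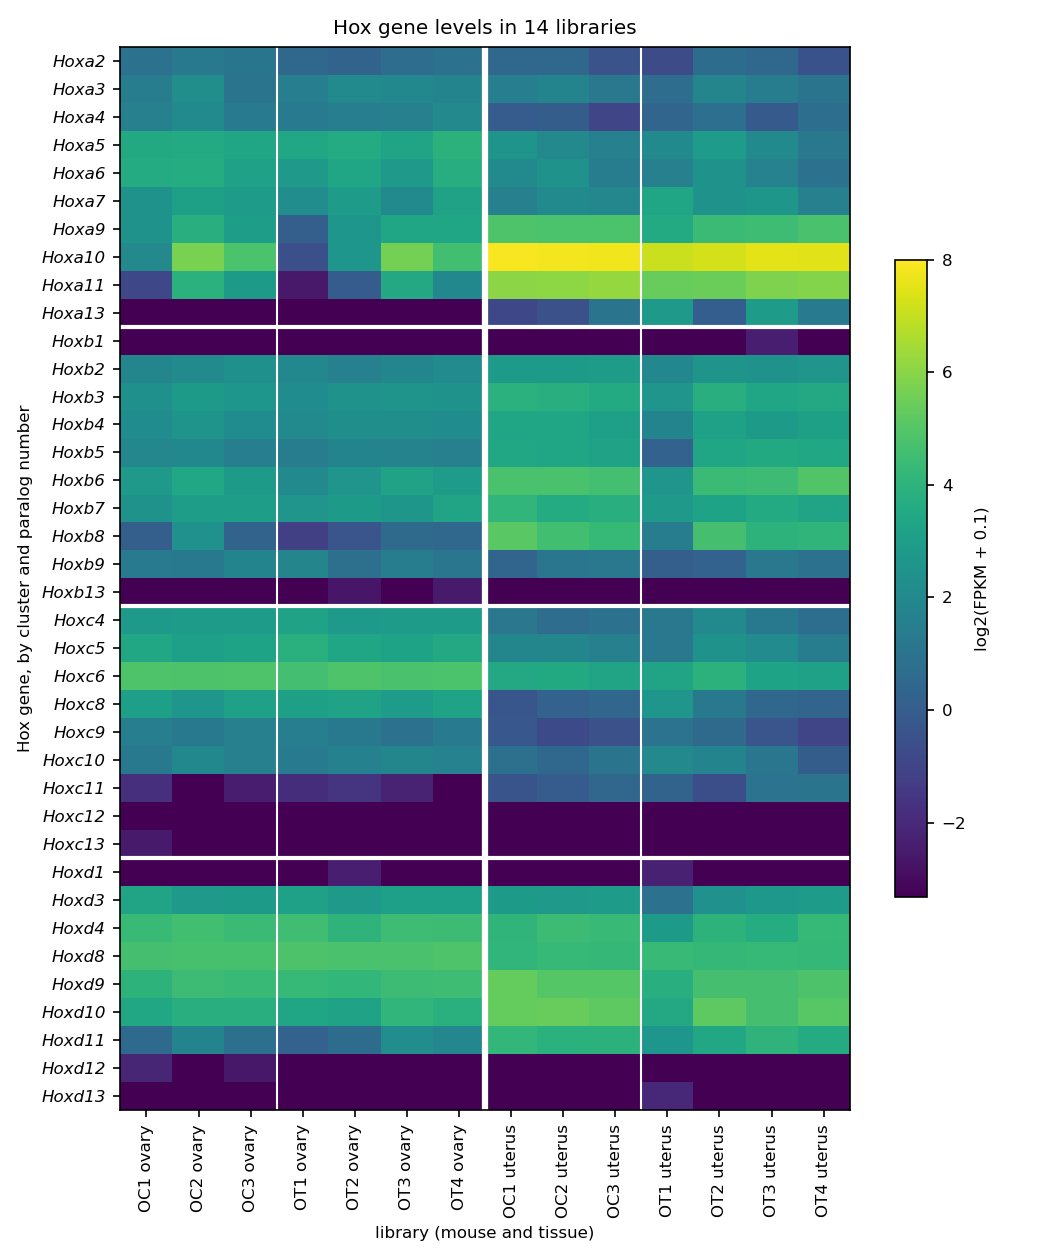
Level of Hox genes (rows, by cluster and paralog number) in each of the 14 libraries (columns, by mouse and tissue), as log2(FPKM + 0.1); thick white lines part the clusters and the tissues, thin ones OC from OT. Hoxa10 is the brightest row in the uterus (138 to 236 FPKM), the Hoxc rows are brighter in the ovary, and Hoxa9, Hoxa10 and Hoxa11 differ from ovary to ovary.

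The summed FPKM of the members was higher in the uterus than in the ovary. It was lowest at 211.9, with a median of 265 and a highest value of 325, over the 7 ovaries, and 336, 513 and 630 over the 7 uteri. The tissues did not overlap, but the OT1 uterus (336) was only just above the OC2 ovary (325). Hoxa10 gave 138 FPKM of the former sum and 53.4 of the latter, so that the separation rests on this gene. Genes of groups 9 to 13 gave 19.4% to 41.5% of the sum in the ovary (median 30.2%) and 61.6% to 70.8% in the uterus (median 68.6%). The Hoxc cluster gave 17.3% to 29.2% of the sum in the ovary and 3.34% to 8.05% in the uterus. The Hoxa cluster, by contrast, gave 14.4% to 38.9% in the ovary and 50.5% to 65.1% in the uterus.

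In the ovary the member with the highest mean was Hoxc6, a mid-cluster gene of the trunk, with 27.9 ± 1.81 FPKM (SD, n = 7). Hoxd8 followed with 27.0 ± 1.42 FPKM, Hoxa10 with 23.4 ± 21.5, Hoxd4 with 21.2 ± 2.43 and Hoxd9 with 19.9 ± 2.28 FPKM. The SD of Hoxa10 was nearly as large as its mean, and these neighbours in the order lay within its spread. Hoxc6 was the highest member of its cluster in all 14 libraries, and Hoxd8 that of Hoxd in 7 of 7 ovaries. For Hoxa the highest member changed between ovaries, being Hoxa10 in 4, Hoxa5 in 2 and Hoxa6 in 1.

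In the uterus Hoxa10 had the highest level, 191 ± 36.6 FPKM (SD, n = 7), followed by Hoxa11 with 58.2 ± 11.9 FPKM. The lowest Hoxa10 level in a uterus, 138 FPKM, was above the highest level of Hoxa11, 73.2 FPKM. Hoxd10, a gene of limb and lumbar position, had 32.1 ± 10.7 FPKM, Hoxd9 28.1 ± 8.17, Hoxa9 23.7 ± 5.99 and Hoxb6 22.3 ± 7.89 FPKM, and these 4 neighbours overlapped. Hoxd10 was the highest member of Hoxd in 5 of 7 uteri.

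Uterus and ovary were then compared over all genes to show at which paralog number the difference turned. With limma on log2(FPKM + 0.1), a gene was called at a Benjamini-Hochberg adjusted p under 0.05 and an absolute log2 difference of at least 1. Of the 31 members tested, 11 were called higher in the uterus, where 10.0% of the 14557 tested genes were called, and 8 were called lower, where 9.59% were. The median log2 difference over the 31 was -0.32, against -0.00 over all tested genes. Hoxa13 and Hoxc11 passed the filter on low values only through the uterus, which set their direction, so their levels are given as a description, without a test. Of the 29 members that reached 0.5 FPKM in the ovary as well, 9 were called higher. In such whole organs, fewer cells of a type and less RNA per cell cannot be told apart.

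The direction turned along the Hoxa and Hoxd clusters. In Hoxa, all 6 members of groups 2 to 7 had a lower level in the uterus (log2 difference -1.58 to -0.32, 3 called) and all 4 of groups 9 to 13 a higher one, Hoxa13 by way of the filter. In Hoxd, the 3 members of groups 3 to 8 lay at -0.52 to -0.41, 0 called, and the 3 of groups 9 to 11 at 0.49 to 2.56, 2 called. The limma adjusted p was 0.141 for Hoxd3 and 0.0711 for Hoxd4, so the turn in Hoxd is one of sign. In Hoxc the 6 members of groups 4 to 10 lay at -2.38 to -0.62 with 5 called, and the one positive member was Hoxc11, whose direction came from the filter. Hoxb went the other way: the 7 members of groups 2 to 8 lay at 0.61 to 3.69 with 4 called, and Hoxb9 at -0.63, which was not called. A paralog number alone thus did not give the direction, since of the 20 tested members of groups 2 to 8, 7 were positive and 13 negative. Of the 9 members of groups 9 to 13 that reached the filter in the ovary, 6 were positive and 3 negative.

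**Figure D2:**
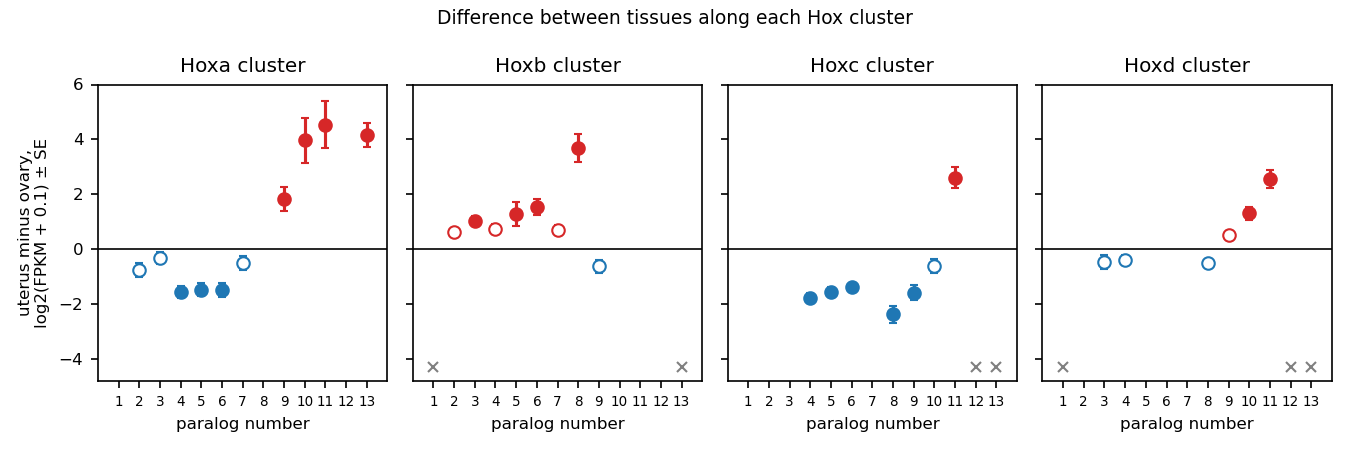
Uterus minus ovary difference on the log2(FPKM + 0.1) scale (y axis, ± SE, 14 libraries) by paralog number (x axis) for each cluster; filled points passed the call, open points did not, red is higher and blue lower in the uterus, and grey crosses at the foot mark genes under the filter. The sign turns between groups 7 and 9 in Hoxa and 8 and 9 in Hoxd, whereas Hoxb is positive up to group 8; the points of Hoxa13 and Hoxc11 passed the filter only through the uterus, and the height of Hoxa13 depends on the pseudocount, as it was listed at 0 in every ovary.

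Among the genes of groups 9 to 13, Hoxa10 ranged over the ovaries from 0.572 FPKM (median 23.4, highest 53.4) and over the uteri from 138 (median 186, highest 236). Every uterus was above every ovary, and the log2 difference was 3.96 ± 0.81 (SE; limma adjusted p = 0.00112). Hoxa11 ranged from 0.0707 to 14.7 FPKM in the ovary (median 3.78) and from 41.7 to 73.2 in the uterus (median 60.1). Its log2 difference was 4.53 ± 0.86 (limma adjusted p = 0.000636), again with no overlap. Hoxa9 reached 0.982 to 14.05 FPKM in the ovary (median 7.99) and 11.9 to 29.2 in the uterus (median 26.5), a log2 difference of 1.82 ± 0.44 (limma adjusted p = 0.00359). Its tissues overlapped, since the OT1 uterus was below the OC2 ovary.

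Hoxa13 was listed at 0 in all 7 ovaries and read in all 7 uteri, at 0.443 to 7.55 FPKM with a median of 1.98. No fold or test is given against a tissue listed at 0. Hoxc11 was at 0 to 0.234 FPKM in the ovary (median 0.112) and at 0.551 to 1.92 in the uterus (median 1.12), a low level in both. Its log2 difference of 2.59 ± 0.38 rests on the pseudocount for the 2 ovaries listed at 0, and is given without a test. In Hoxd, whose tail-end genes also pattern the limb and genital tubercle, Hoxd11 was at 1.07 to 4.55 FPKM in the ovary (median 1.74) and at 6.16 to 17.9 in the uterus (median 14.9). The log2 difference of Hoxd11 was 2.56 ± 0.33 (limma adjusted p = 2.22e-05), with no overlap. Hoxd10 differed by 1.30 ± 0.24 (limma adjusted p = 0.000496) and Hoxd9 by 0.49 ± 0.15, under the size asked for. The 3 members of these groups with a lower mean in the uterus were Hoxc9, at 1.80 to 2.97 FPKM in the ovary and 0.409 to 1.89 in the uterus (log2 difference -1.59, called), Hoxc10, at 2.31 to 3.85 and 0.916 to 3.98 (-0.62), and Hoxb9, at 1.69 to 3.46 and 0.960 to 2.21 (-0.63).

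Hoxb8 had the largest difference outside those groups. In the ovary it was at 0.342 to 5.19 FPKM (median 1.11) and in the uterus at 2.60 to 34.4 (median 19.2), a log2 difference of 3.69 ± 0.52 (limma adjusted p = 5.15e-05). The tissues overlapped only through the OT1 uterus (2.60 FPKM) and the OC2 ovary (5.19 FPKM). Hoxb6 differed by 1.53 ± 0.31 (limma adjusted p = 0.000985). Hoxb5 differed by 1.28 ± 0.42 (limma adjusted p = 0.0216), and Hoxb3 (1.03) lay close to the size asked for. Hoxb5 lost its call, through its adjusted p, when the mouse OC1, OC2, OC3, OT2, OT3 or OT4 was left out (log2 difference 1.14 to 1.31). It kept the call without OT1 (1.65). Hoxb3 lost its call without OC1 (0.94) or without OT2 (0.95).

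Of the members higher in the ovary, the largest group was in Hoxc, the cluster that has no gene of groups 1 to 3. Hoxc6 was at 24.4 to 29.6 FPKM in the ovary (median 28.1) and at 8.71 to 15.6 in the uterus (median 9.69), a log2 difference of -1.38 ± 0.12 (limma adjusted p = 5.00e-07). Hoxc8 had the largest of these differences, -2.38 ± 0.30 (limma adjusted p = 1.85e-05), with 6.00 to 9.20 FPKM in the ovary and 0.711 to 5.97 in the uterus. The highest uterus value of Hoxc8 was that of OT1. Hoxc4 and Hoxc5 differed by -1.78 and -1.57. In Hoxa, Hoxa5, which is known for lung and trunk patterning, was at 9.71 to 15.2 FPKM in the ovary (median 11.5) and at 2.22 to 7.44 in the uterus (median 4.10), a log2 difference of -1.48 ± 0.23 (limma adjusted p = 0.000108). Hoxa4 and Hoxa6 differed by -1.58 and -1.50. All these but Hoxc4 overlap another gene on their strand by their annotated start and end, introns included, so the split of their reads is uncertain.

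Every uterus was above every ovary for Hoxa10, Hoxa11 and Hoxd11, 3 of the 29 members (10.3%) that reached the filter in the ovary, where 11.5% of all tested genes, which were not held to that ovary filter, had this separation. Hoxa13 and Hoxc11 were separated too but passed the filter only through the uterus. Every uterus was below every ovary for 8 of the 31 tested members (25.8%), Hoxa4, Hoxa5, Hoxa6, Hoxc4, Hoxc5, Hoxc6, Hoxc8 and Hoxd8, where 13.5% of all genes were. With the mouse as a replicate block, since both libraries carry the label of the mouse, the same 11 members were called higher and the same 8 lower. The 11 again held Hoxa13 and Hoxc11, whose direction came from the filter.

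Hoxd8, a gene of the middle of its cluster, was the steadiest member. Its level in the ovaries was 25.4, 26.0 and 26.1 FPKM in OC1 to OC3 and 28.2, 26.6, 27.0 and 29.5 in OT1 to OT4, and in the uteri 17.4, 19.4 and 18.4 in OC and 19.5, 18.3, 19.0 and 18.7 in OT. The residual SD was 0.06 on the log2 scale in the fit of all 14 libraries, where the median over the tested genes was 0.26 and it stood 14523rd of the 14557 genes from the largest SD down. Its tissue difference, -0.52 ± 0.05 (limma adjusted p = 2.79e-06), was below the size asked for although no ovary and uterus overlapped.

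The ovaries differed among themselves most in the tail-end Hoxa genes. Hoxa11 was at 0.443, 14.7 and 7.09 FPKM in the OC1 to OC3 ovaries and at 0.0707, 0.884, 11.4 and 3.78 in OT1 to OT4. Hoxa10 was at 3.92, 53.4 and 27.7 FPKM in OC1 to OC3 and at 0.572, 6.09, 48.9 and 23.4 in OT1 to OT4. Both genes had the same order of ovaries, OC2, OT3, OC3, OT4, OT2, OC1 and OT1, so that high and low libraries occurred in each group. Hoxa9, whose domain in the duct lies nearer the ovary, was at 5.59, 14.05 and 7.99 FPKM in OC and at 0.982, 6.02, 10.0 and 10.2 in OT.

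By their residual SD in the ovary fit, Hoxa11 (2.58 on the log2 scale) stood 11th, Hoxa10 (2.44) 15th and Hoxa9 (1.26) 152nd from the top of 14415 genes, whose median was 0.17. Hoxb8 (1.03) stood 250th and Hoxd11 (0.84) 415th. These 5 were called higher in the uterus. Set against the uterus of the same mouse, the ovary level of Hoxa11 was 0.169% to 21.8% (median 6.28%), that of Hoxa10 0.415% to 26.3% (median 12.9%) and that of Hoxa9 8.24% to 50.6% (median 29.1%).

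Some uterus markers took a like order. Of the 12 in the list, 10 were highest in OC2 or OT3, the ovaries with the highest Hoxa10 and Hoxa11, 9 were lowest in OT1 (1 of them tied), and 8 were both. Lif was neither, and Foxa2 was highest in OT4. Among those nearest to the order of Hoxa11 were Hand2 and Prss29, chosen after their values were seen. Hand2, a transcription factor of the uterine stroma, was at 1.38, 5.11 and 3.06 FPKM in the OC1 to OC3 ovaries and at 0.966, 2.04, 5.21 and 2.72 in OT1 to OT4, the order of Hoxa11 but for OC2 and OT3, which changed places. Prss29, a protease gene of uterine glands, was at 0.850, 15.4 and 12.0 FPKM in OC and at 0.539, 0.960, 22.1 and 5.23 in OT, in the order of Hand2. The summed uterus markers of the list were highest in the OC2 ovary (713 FPKM) and lowest in OT1 (249.9). Between these ends the order was not that of Hoxa11, with OT4 (567) above OT3 (533) and OT2 (478) above OC3 (452). Much of the sum was Des and Myh11, at 221 and 279 FPKM in OC2. Foxj1, a gene of ciliated cells of the oviduct, did not follow the order of Hoxa11, with 19.2, 16.3 and 18.2 FPKM in OC and 19.8, 19.1, 11.9 and 20.5 in OT. Ovgp1 shared the low end, being lowest in the OT1 ovary (424 FPKM), but was highest in OT4 (942). The summed oviduct markers were likewise lowest in OT1 (504 FPKM) and highest in OT4 (1016). The part of uterine tissue in the ovary levels of these Hox genes was not tested.

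**Figure D3:**
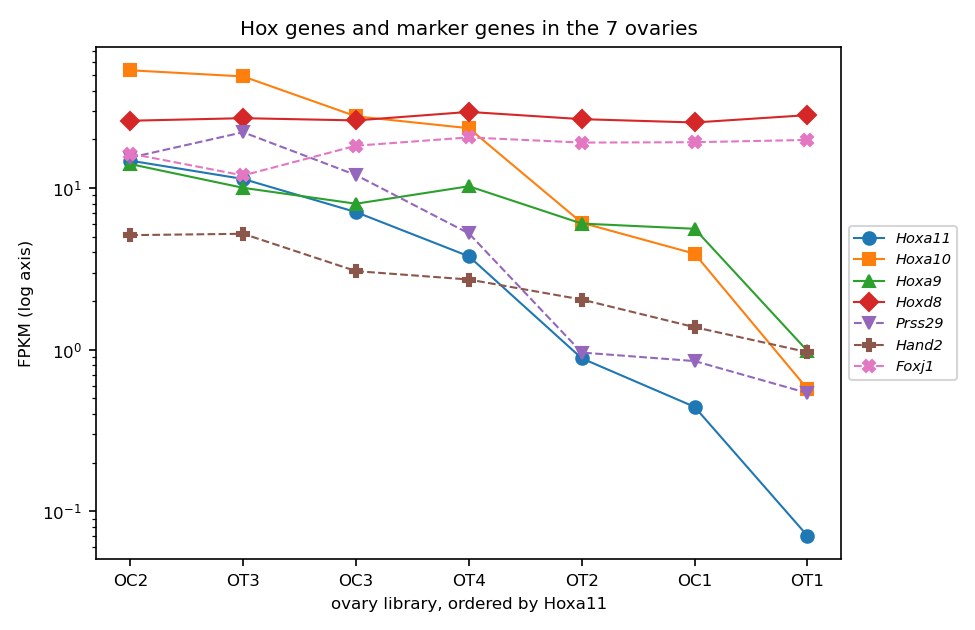
FPKM (log axis) of 4 Hox genes (solid lines) and 3 marker genes (dashed lines: Prss29 and Hand2 of the uterus, Foxj1 of ciliated cells) in the 7 ovary libraries, ordered along the x axis by Hoxa11; the lines join libraries and mark no order in time. Hoxa11 and Hoxa10 go down from OC2 to OT1 together, Prss29 and Hand2 take nearly the same order, and Hoxd8 stays between 25.4 and 29.5 FPKM.

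Whether AMSC-CM went with a change of the Hox genes was read from OT against OC in each organ. Here a gene was called at an unadjusted limma p of at most 0.05 with a log2 fold change of 1 or more in either direction, the cutoffs of the study. In the uterus 1 of 31 tested members, Hoxa13, was called higher in OT, where 2.23% of the 14151 tested genes were called, and 0 were called lower, where 0.664% were. By limma, 0 genes passed an adjusted p under 0.05, and 1160 genes, 6 of them members, had an unadjusted p under 0.05. The median log2 fold change of the members was -0.32, against 0.01 over all tested genes.

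Hoxa13 was at 0.443, 0.609 and 1.98 FPKM in the OC1 to OC3 uteri and at 6.70, 0.958, 7.55 and 2.47 in OT1 to OT4. OT1, OT3 and OT4 were above every OC uterus and OT2 was below OC3, so that the groups overlapped. The means were 1.01 ± 0.84 FPKM in OC (SD, n = 3) and 4.42 ± 3.20 in OT (SD, n = 4), and the log2 fold change was 1.89 ± 0.76 (SE; limma adjusted p = 0.589). The call was lost without OC1 (log2 fold change 1.51), OC2, OT1 or OT3 (up to 1.70). Stratified epithelium markers moved in the same direction, with Krt5, a keratin of basal epithelial cells, at 0.457, 2.81 and 0.357 FPKM in OC and at 37.1, 11.7, 299 and 159 in OT. The highest Hoxa13 and Krt5 levels were both in OT3, and OT2 had the lowest of both among the OT uteri. The order otherwise differed, since OT1 was above OT4 for Hoxa13 and below it for Krt5. Of the OC uteri, OC3 had the highest Hoxa13 and the lowest Krt5. Urothelium markers were highest in OT1, with a sum of 166 FPKM. The part of cervical, vaginal or urothelial tissue in the Hoxa13 level was not tested.

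In the uterus, 7 members had every OT uterus below every OC uterus, 22.6% of the 31 tested, where 5.48% of all tested genes did so, and 0 members had every OT uterus above, where 6.46% did. None of the 7 reached the size of a call or an adjusted p under 0.05, and 5 had an unadjusted limma p under 0.05. Hoxa10 was at 236, 225 and 214 FPKM in OC1 to OC3 and at 138, 154.5, 186 and 180.3 in OT1 to OT4, a log2 fold change of -0.46 ± 0.14 (limma adjusted p = 0.549). Hoxa11 was at 64.4, 67.7 and 73.2 FPKM in OC and at 41.7, 43.6, 56.5 and 60.1 in OT (-0.45 ± 0.16, limma adjusted p = 0.550). Both were lowest in OT1 and next lowest in OT2.

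Hoxa9 was at 29.2, 27.8 and 27.4 FPKM in OC and at 11.9, 21.1, 22.3 and 26.5 in OT. Hoxd9 was at 39.7, 32.4 and 32.1 FPKM in OC and at 13.5, 25.3, 25.1 and 28.8 in OT. Hoxd10 was at 39.8, 41.6 and 36.8 FPKM in OC and at 11.2, 36.6, 25.0 and 33.7 in OT. In these 3 OT1 was well below the other OT uteri. Hoxb2, a gene of hindbrain patterning, was at 7.12, 7.11 and 7.28 FPKM in OC and at 3.84, 5.68, 5.35 and 5.81 in OT. Hoxb7 was at 17.4, 12.3 and 13.7 FPKM in OC and at 6.82, 9.41, 12.1 and 9.69 in OT. The log2 fold changes of these 5 were -0.70 to -0.48 with adjusted p of 0.550 to 0.625 by limma.

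The OT1 uterus had the lowest value of the 7 uteri in 19 of the 31 members, all of the 7 just named among them. The median of its log2 differences from the OC mean was -0.77 over the members, against 0.00, -0.09 and -0.24 in OT2, OT3 and OT4. By cluster, that median in OT1 was -1.31 for Hoxb and -1.40 for Hoxd but 0.29 for Hoxc. Hoxb5 was at 1.09 FPKM in OT1 and at 10.3, 11.5 and 10.7 in the other OT uteri, Hoxb8 at 2.60 against 25.1, 16.0 and 17.0, and Hoxd3 at 1.77 against 5.13, 6.52 and 7.24. The OT1 uterus was also the library with the adipocyte sum of 11768 FPKM, where the other OT uteri had 1230 to 2259, and uterus markers had a median log2 difference of -1.05 in it. The part of other tissue in its Hox levels was not tested. Leaving out a library cannot end a separation. In a check added after the data were seen, without OT1 the same 7 members had every OT uterus below every OC uterus, where 7.29% of all genes did so, and 0 were above, where 8.83% were.

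**Figure D4:**
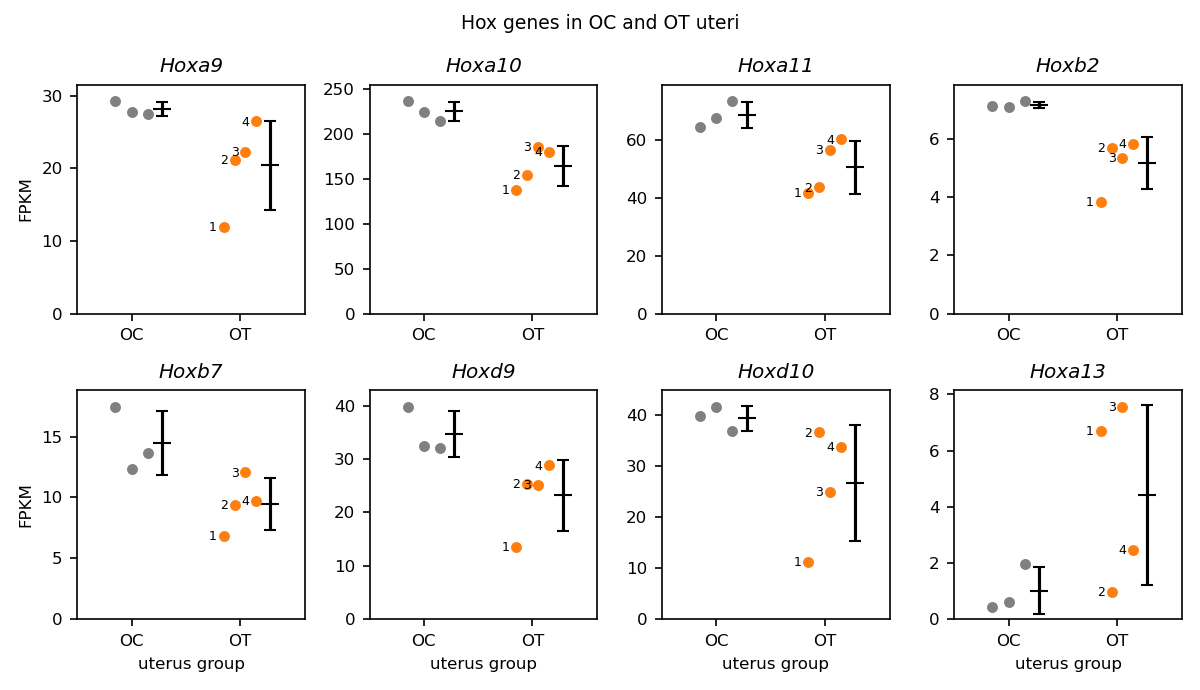
FPKM (y axis, from 0) of the 7 members with every OT uterus below every OC uterus and of Hoxa13, in OC (grey, n = 3) and OT (orange, n = 4, numbered by mouse) uteri; the black bars are the mean ± SD. OT1 is the lowest point in the first 7 panels and OT1 and OT3 are the highest in the Hoxa13 panel, where OT2 (0.958) lies below the highest OC uterus (1.98).

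The clusters differed in the sign of their log2 fold changes in the uterus. All 8 tested members of Hoxb were negative (-1.11 to -0.28, median -0.58), as were 5 of 6 of Hoxd (median -0.59), whereas 6 of 7 of Hoxc were positive (median 0.42), with Hoxc8 at 1.04 ± 0.55 (limma adjusted p = 0.623). Of these none was called, and the members of a cluster share their libraries. Hoxc8 was at 0.711, 1.09 and 1.23 FPKM in OC and at 5.97, 2.26, 1.28 and 1.18 in OT, so that its mean in OT rested on OT1 and OT2. Hoxb8 was at 34.4, 23.9 and 19.2 FPKM in OC and at 2.60, 25.1, 16.0 and 17.0 in OT, a log2 fold change of -1.11 ± 0.70 (limma adjusted p = 0.627).

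In the ovary 0 of 29 tested members were called higher in OT, where 0.368% of the 14415 tested genes were called, and 0 were called lower, where 0.0832% were. By limma, 0 members and 650 genes had an unadjusted p under 0.05, and 0 genes an adjusted p under 0.05. Hoxd8 had every OT ovary above every OC ovary (2.78% of all genes), with a log2 fold change of 0.10 ± 0.06. Hoxa2, a gene of the hindbrain and neural crest, had every OT ovary below every OC ovary (3.13% of all genes), at 1.84, 2.28 and 2.00 FPKM in OC and at 1.33, 1.11, 1.56 and 1.83 in OT (log2 fold change -0.47 ± 0.22, limma adjusted p = 0.997). The log2 fold changes of Hoxa10 and Hoxa11 were -1.13 ± 1.43 and -1.23 ± 1.51, and that of Hoxa10 was 0.084 without OT1.

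The difference between uterus and ovary in the OT minus OC change was tested as an interaction over all 14 libraries. By limma, 0 of 31 members passed an adjusted p under 0.05, and 0.0% of the 14557 tested genes did so. At an unadjusted p under 0.05 there were 746 genes and 1 member, Hoxd9, with a difference of -0.72 ± 0.30. Hoxa13, the member called in the uterus, was listed at 0 in every ovary. For it this contrast repeats the uterus fold change and compares no ovary response, so its p is not given.

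Proteins of the TALE homeodomain family bind DNA together with Hox proteins. Of 9 tested cofactor genes, 3 were called higher in the uterus and 0 lower, where 10.0% and 9.59% of all tested genes were. The median log2 difference of the list was 0.81. Pbx4, one of the 3, passed the filter on low values only through the uterus, which set its direction, so its call is a description. Meis2 was at 17.3 FPKM on average in the ovary and 44.8 in the uterus (log2 difference 1.36 ± 0.17, limma adjusted p = 2.10e-05) and Pbx4 at 0.259 and 0.834. Between OT and OC, 0 of the 9 in the uterus and 0 of the 8 in the ovary were called.

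Polycomb and Trithorax genes encode the chromatin proteins that keep Hox clusters silent or active. All 21 were tested, and 0 were called between the tissues or between OT and OC in either organ, with a median log2 difference of -0.03 between the tissues. Mean FPKM in the ovary were 23.9 for Ezh1 and 29.3 for Phc2, and in the uterus 26.6 for Ezh1 and 32.6 for Phc2.

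Retinoic acid switches on head-end Hox genes in the embryo. Of the 16 tested genes of its pathway, 2 were called higher in the uterus, the receptor gene Rarg (1.07 ± 0.11) and the retinol dehydrogenase gene Rdh10 (1.37 ± 0.18), and 3 lower, Aldh1a1, Aldh1a2 and Crabp2. Aldh1a1, which makes retinoic acid, was at 222 FPKM in the ovary and 22.6 in the uterus, a log2 difference of -3.40 ± 0.24 (limma adjusted p = 8.03e-08). In OT against OC, 0 of the 16 in the uterus and 0 of the 15 in the ovary were called.

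Other homeobox genes of the tract and gonad were called higher in the uterus in 8 of 13 tested and lower in 3. Emx2, needed for the genital tract, was at 8.31 FPKM in the ovary and 27.1 in the uterus (log2 difference 1.70 ± 0.13), Msx1, a gene of uterine epithelium at implantation, at 5.29 and 39.6 (2.83 ± 0.39), and the gonadal gene Lhx9 at 3.34 and 0.0440 (-4.54 ± 0.24). In the ovary Pax2 was called lower in OT (-1.09 ± 0.46, limma adjusted p = 0.997). The caudal and cluster-edge homeobox genes, Cdx1, Cdx2, Cdx4, Evx1, Evx2 and Gbx2, were all below the filter, and their summed FPKM was at most 0.617 in any library.

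Of the genes reported to act with or below Hoxa10, Hoxa11 or Hoxa13, 14 were tested between the tissues, with 7 called higher in the uterus and 1 lower. Pgr, the progesterone receptor gene, was at 12.7 FPKM in the ovary and 69.2 in the uterus (log2 difference 2.49 ± 0.28, limma adjusted p = 7.26e-06), Wnt7a, a gene of uterine epithelium, at 0.417 and 1.51, and Wnt4, which acts in both the ovary and the uterus, at 57.4 and 1.83 (-5.14 ± 0.23). Between OT and OC, 0 of 15 in the uterus, with a median log2 fold change of -0.31, and 0 of 12 in the ovary were called.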

How the data were processed

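FPKM were deposited by the authors for 14 libraries, which were rRNA-depleted and strand-specific. Per the labels and the methods of the study, the steps before were Skewer 0.2.2 for trimming, STAR 2.5 for mapping to mm10, and Cufflinks 2.2.1. Symbols and positions came from GENCODE M21 for all 21853 identifiers. The FPKM were not rescaled, so a value depends on the RNA makeup of its library. Genes that averaged 0.5 FPKM or more over the libraries compared were fitted on log2(FPKM + 0.1). The fits used lmFit and trended eBayes of limma 3.58.1 (R 4.3.3), with Benjamini-Hochberg adjustment over all tested genes. Fold changes on this scale understate those of low genes. Tables were made with pandas 2.3.3 and numpy 2.4.6 in Python 3.11.15, figures with matplotlib 3.10.9. The fits were tested on simulated data.

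The members and lists were chosen with earlier results of these data known. Values per library, or the lowest, median and highest of a tissue, were given for the members called in a treatment comparison, those with the highest mean in a tissue and those of groups 9 to 13 that passed the filter. Hoxb2, Hoxb5, Hoxb7, Hoxd3, Hoxa2 and the marker genes Hand2, Prss29 and Foxj1 were chosen after their values were seen. Results for some genes are not reported here. Libraries were grouped by their labels, which name no batch. The alternatives were pseudocounts of 1 and 0.01, no filter or a mean of 2 FPKM, 75th percentile scaling, robust eBayes, a replicate block, 1 fit of all libraries, fits within OC or OT mice, and leaving out each mouse. Cuffdiff, the test of the study, needs reads and was not run. Deviations from the group means correlated at r = 0.074 to 0.254 between the ovary and uterus of a mouse label, and the pairing rests on that shared label.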

Additional observations from a re-analysis of the deposited data

Results flagged for a closer look

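Of 60 groups of 4 OT libraries, taken for each member with a mean of at least 0.5 FPKM and tissue, 2 held a library far from the other 3, where chance gives about 1 in 20. Hoxb5 was at 1.09 FPKM in the OT1 uterus, with the other OT uteri at 10.3 to 11.5. Hoxc6 was at 15.6 FPKM in the OT2 uterus, with the others at 8.71 to 9.65.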

How the results depend on the processing

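Of the log2 differences between the tissues under the alternatives, 475 kept their call or lack of one, 16 lost a call and 1 gained one. Between OT and OC, 144 in the uterus kept theirs, 4 lost and 1 gained one, and in the ovary 87 did and 1 turned, Hoxa10, which ranged from -2.21 to 0.084 when 1 mouse was left out and was positive without OT1. The lost calls were those of Hoxa13 in the uterus (without OC1, OC2, OT1 or OT3) and, between the tissues, of Hoxb5, Hoxb3, Hoxa9, Hoxc9, Hoxc11 and Hoxd10. The number of members called higher in OT uteri was 2 in a single fit of the 14 libraries (Hoxa13 and Hoxc8), and leaving out 1 library gave 0 to 1. The mouse as a replicate block left the members called between the tissues at 11 higher, Hoxa13 and Hoxc11 by way of the filter, and 8 lower. OC and OT libraries of the same number are different mice, whose deviations correlated at -0.011 to 0.335. A replicate block of these numbers, without OT4, left 1 member called in the uterus and 0 in the ovary. Over all genes it gave 427 higher and 239 lower in the uterus, against 316 and 94, and 70 and 35 in the ovary, against 53 and 12. A pseudocount of 1 gave 202 and 57 in the uterus and 16 and 2 in the ovary, and a mean of at least 2 FPKM 220 and 61, and 25 and 0. Without the filter there were 427 and 152, and 99 and 60. Leaving out 1 library gave 243 to 416 higher and 52 to 189 lower genes in the uterus, where the numbers of lower genes without OT1 (52) and OT4 (189) were furthest from 94, and 36 to 104 higher and 10 to 33 lower in the ovary, where the highest numbers came without OT3. The interaction passed in 8 genes without OT2, none of them a member. Depth is unknown, so values near 0 carry no limit.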
